A study of Mus musculus with 10 samples.

Results

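Intercalated cells, principal cells, the distal convoluted tubule and the thick ascending limb of the loop of Henle were each followed through a set of marker genes in sorted mouse renin cells. The 35 genes make up 35 of the 32648 genes in the table, and they were chosen as textbook markers of these cells and from earlier results on the same libraries, in which several of them were higher in the right than in the left kidney after aortic coarctation. Their right to left differences are therefore given as descriptions, and no test over the list is made. All 35 passed the filter on low counts. They comprise 20 genes listed with intercalated cells, 8 of principal cells, 4 of the distal tubule and 3 of the loop.

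RNA was measured by RNA-seq in 4 groups of libraries, each library from 1 kidney. The groups were the right kidneys of 3 mice with coarctation, the left kidneys of the same 3 mice, the right kidneys of 2 sham mice and the left kidneys of the same 2 sham mice. All mice were C57BL/6 animals, 8 to 12 weeks old, that carried the renin reporter Ren1c-YFP, and all were studied 72 hours after surgery. For coarctation the aorta was narrowed between the origins of both renal arteries, and sham mice had the operation without exposure or narrowing of the aorta. From each dissected and enzyme-digested cortex, 1000 living cells (DAPI negative) with yellow fluorescent protein were sorted, and cDNA was made with SMART-Seq v4, a full-length kit for very small inputs. The libraries held 20029817 to 32006229 estimated counts each. Levels are in TPM, which scales reads by transcript length and library size, and 3 counts of the proton pump gene Atp6v1g3 correspond to 0.0417 to 0.0612 TPM.

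The collecting duct adjusts the final urine. Principal cells take up sodium and water under aldosterone and vasopressin, while intercalated cells move acid and base with a proton pump, the vacuolar H+-ATPase, together with anion exchangers. Type A intercalated cells secrete acid into the urine and type B cells secrete bicarbonate. Upstream, the thick ascending limb and the distal convoluted tubule reabsorb salt without water. Renin in the blood comes mainly from juxtaglomerular cells in the wall of the afferent arteriole, which lie next to the end of the ascending limb, and principal cells have also been reported to make some renin.

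Several intercalated genes are known targets of Foxi1, a forkhead transcription factor, and the promoters of both pump genes in which a forkhead word was found are shown for that reason. The word TGTTTAC, the word TGTTTAT, the word TGTTTGC and the word TGTTTGT were searched on both strands of windows running from 250 bases before to 50 bases after the transcript start, with sequences from RefSeq on GRCm38.p6. The window of Atp6v1g3 is chr1:138273488-138273787 and that of Atp6v1b1 is chr6:83742767-83743066, both on the plus strand, and capitals mark the word.
Atp6v1g3: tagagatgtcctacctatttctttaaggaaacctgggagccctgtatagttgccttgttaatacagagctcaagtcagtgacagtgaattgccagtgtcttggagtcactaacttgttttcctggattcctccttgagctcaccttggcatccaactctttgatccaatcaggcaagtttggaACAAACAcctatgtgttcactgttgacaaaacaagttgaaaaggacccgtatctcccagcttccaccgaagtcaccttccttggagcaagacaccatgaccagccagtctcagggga
Atp6v1b1: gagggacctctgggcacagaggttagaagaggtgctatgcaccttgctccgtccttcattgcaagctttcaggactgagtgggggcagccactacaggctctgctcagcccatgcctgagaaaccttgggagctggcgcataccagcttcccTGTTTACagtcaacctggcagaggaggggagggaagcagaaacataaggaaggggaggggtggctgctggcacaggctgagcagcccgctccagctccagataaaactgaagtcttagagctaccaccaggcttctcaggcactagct
In Atp6v1g3 the word lies 67 bases before the start on the reverse strand, and in Atp6v1b1 it lies 98 bases before the start on the printed strand. Of the 35 genes, 23 had an entry, with 24 windows, and 4 of these windows (16.7%) held a word. Of all 32851 windows listed for mouse genes, 17.7% held a word, so the marker promoters held it about as often as promoters in general. The other windows with a word were those of Avpr2 and Slc12a1.

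Renin cell genes were abundant in every library. Ren1, the renin gene, had 5451, 11980 and 10840 TPM in coarctation right kidneys and 29290, 48620 and 36880 TPM in coarctation left kidneys, against 21780 and 48590 TPM in sham right kidneys and 30520 and 43900 TPM in sham left kidneys. Transcripts of the EYFP reporter were present in all 10 libraries, at 60.6 to 174.4 TPM in coarctation right kidneys and at 368.6 to 959.2 TPM in coarctation left kidneys. Sham right kidneys had 175.7 and 978.6 TPM of EYFP, and sham left kidneys had 188.9 and 716.9 TPM. Akr1b7, an aldo-keto reductase gene that marks renin cells, ran from 1246 to 3508 TPM in coarctation right kidneys and from 3249 to 6181 TPM in coarctation left kidneys. It had 2245 and 9780 TPM in sham right kidneys and 2874 and 8252 TPM in sham left kidneys. The 3 right kidneys after coarctation thus had the lowest Ren1 of all libraries, and their Ren1 levels did not overlap those of the coarctation left kidneys. The 35 marker genes together held 427.7 to 1949 TPM in coarctation right kidneys, 188.8 to 516.8 TPM in coarctation left kidneys, 273 to 503.5 TPM in sham right kidneys and 545.3 to 765.6 TPM in sham left kidneys. In RNA from sorted pools, fewer cells of a type and less RNA per cell cannot be told apart.

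**Figure D1:**
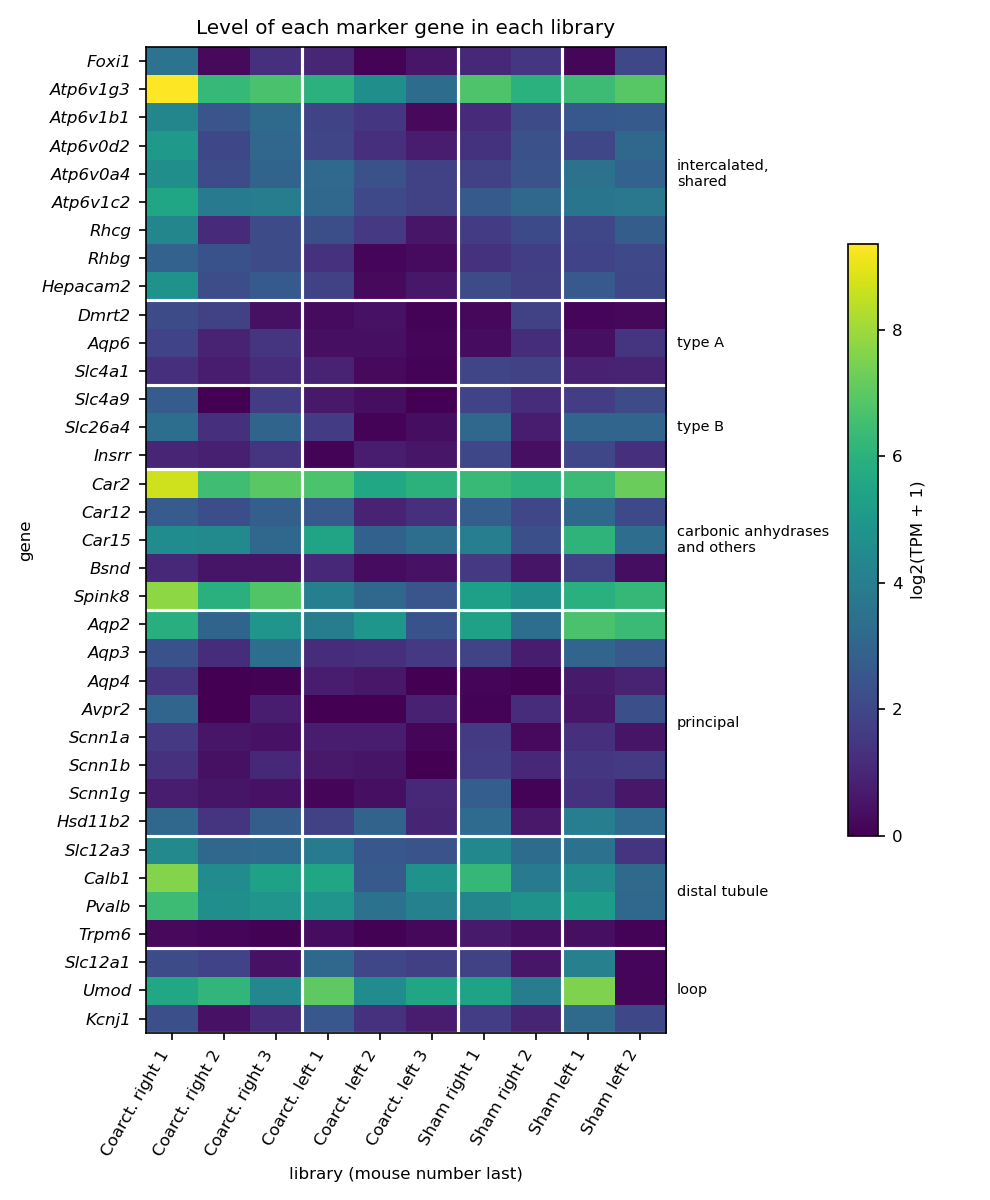
Level of each of the 35 marker genes (rows, grouped by cell type) in each of the 10 libraries (columns, mouse number last), as log2(TPM + 1) in colour. The right kidney of coarctation mouse 1 has the highest Atp6v1g3, at 654.3 TPM, and Atp6v1g3, Car2, Spink8, Aqp2, Calb1 and Umod have the highest mean levels of the genes of their cell types, although Umod is at 0.11 TPM in the left kidney of sham mouse 2.

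In coarctation mice, the genes of intercalated cells were higher in right than in left kidneys, those of principal cells were higher in 2 of the 3 mice, those of the distal tubule were higher by less, and those of the loop were mostly lower. Of the 20 intercalated genes, 19 had a positive log2 change and the median change was 2.66, or 1.48 without the right kidney of mouse 1. The median was 0.95 over the 8 principal genes, 0.87 over the 4 distal tubule genes and -0.765 over the 3 loop genes, beside 0.02 over all 18825 genes tested. Of the 35 genes, 19 were higher in the right kidney of 3 of 3 coarctation mice, which was the case for 20.8% of all tested genes. They were 16 intercalated genes and the distal tubule genes Slc12a3, Calb1 and Pvalb. A single marker, Slc12a1, was lower in the right kidney of all 3 mice, against 8.15% of all tested genes. For 9 markers, all of the intercalated list, every coarctation right kidney lay above every coarctation left kidney, as did 8.19% of all tested genes.

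No gene passed the threshold of 0.05 on the adjusted p in edgeR's quasi-likelihood test of coarctation right against left kidneys (0%, with 871 genes at an unadjusted p under 0.05). With the mouse as a block, the same test called 5 of 18825 genes (0.0266%), and Spink8 was the one marker among them. DESeq2 called 76 genes, Spink8 being again the only marker. This comparison is among those from which the genes were chosen, so that these counts say nothing independent about the markers.

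**Figure D2:**
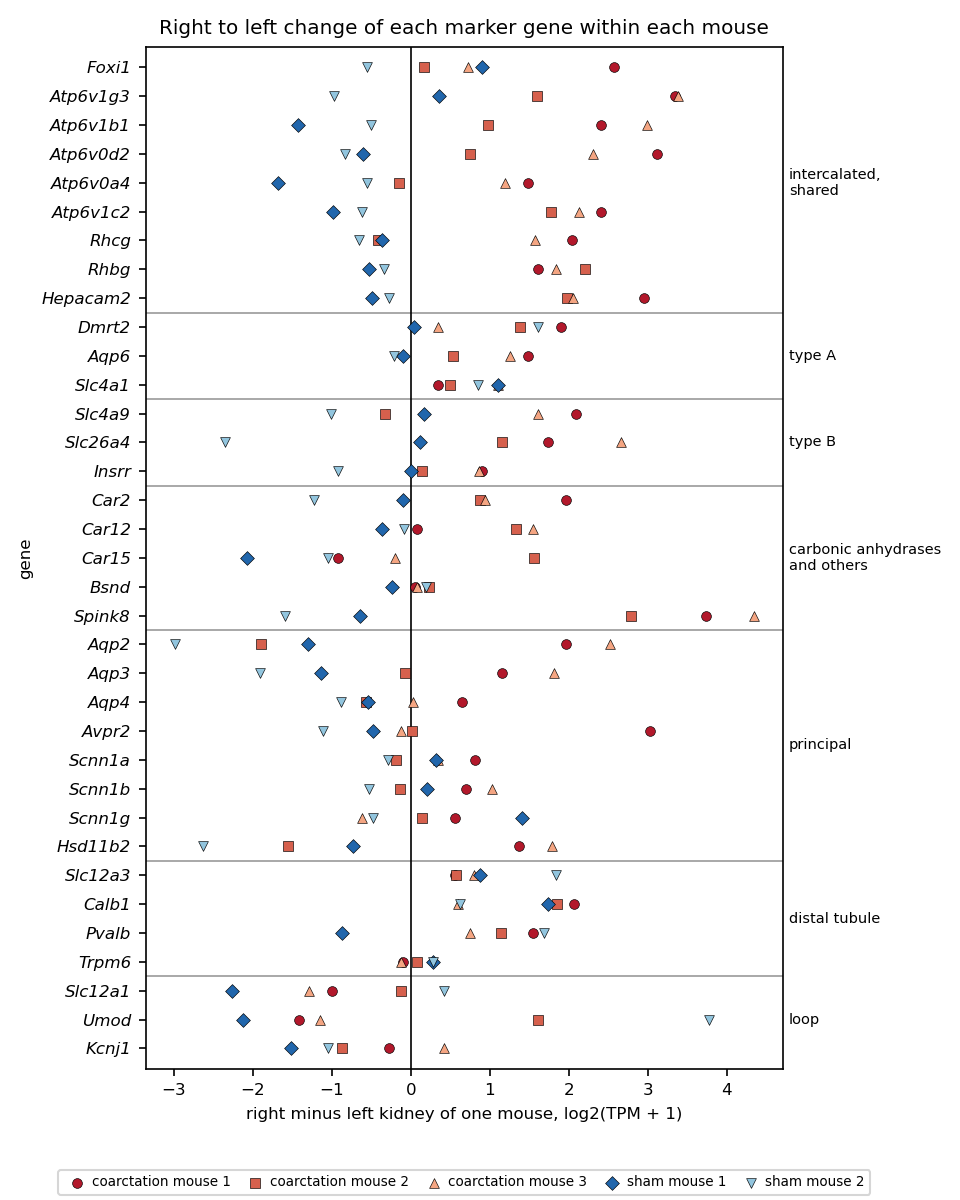
Right minus left difference of each marker gene on the log2(TPM + 1) scale (x axis), 1 point per mouse, with coarctation mice in red tones and sham mice in blue tones. The points of the 3 coarctation mice lie to the right of those of both sham mice for most intercalated genes, including Spink8, and on both sides of 0 for Aqp2, Hsd11b2 and Umod.

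The 9 genes shared by both types of intercalated cell had a summed level of 838.1, 109.2 and 151.4 TPM in the right kidneys of coarctation mice 1, 2 and 3, against 93.8, 37.0 and 16.4 TPM in their left kidneys. Sham kidneys held 126.4 and 90.7 TPM on the right side and 124.9 and 168.6 TPM on the left side. The summed level was therefore higher on the right in each coarctation mouse, and all 3 coarctation left kidneys lay below all 4 sham kidneys except that the left kidney of mouse 1, at 93.8 TPM, was above the right kidney of sham mouse 2. All 9 genes had a positive change in coarctation mice (median 2.73, from 1.18 to 3.32) and a negative change in sham mice (median -0.73). With the mouse as a block, the sham change of Foxi1 turned to 1.07 (SE 1.19). In sham mouse 1, Foxi1 and Atp6v1g3 were higher on the right.

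Atp6v1g3 (chromosome 1, 138273738 to 138289462, plus strand, 3 exons, GRCm38) encodes a G subunit of the stalk of the pump, and it was the most abundant of the 35 genes. It had 654.3, 75.5 and 100.9 TPM in coarctation right kidneys and 63.4, 24.3 and 8.78 TPM in coarctation left kidneys, with 107.6 and 61.5 TPM in sham right kidneys and 84.1 and 121.2 TPM in sham left kidneys. The coarctation groups did not overlap, and the right kidney of mouse 1 alone stood far above the sham range. The log2 change was 3.04 (SE 0.88) in coarctation mice and -0.36 (SE 1.00) in sham mice.

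Atp6v1c2, the C subunit form of kidney and lung, had 45.8, 13.4 and 14.3 TPM in coarctation right kidneys, against 7.85, 3.22 and 2.51 TPM in coarctation left kidneys. In sham mice it had 5.28 and 7.66 TPM in right kidneys and 11.5 and 12.3 TPM in left kidneys. Each coarctation right kidney lay above all 7 other kidneys, and each coarctation left kidney lay below both sham left kidneys. Its log2 change was 2.33 (SE 0.67) in coarctation mice and -0.90 (SE 0.79) in sham mice.

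Atp6v0d2, a subunit that joins the membrane part of the pump to its stalk, had 32.1, 3.08 and 7.41 TPM in coarctation right kidneys and 2.83, 1.42 and 0.70 TPM in coarctation left kidneys. Sham right kidneys had 1.62 and 4.00 TPM, against 2.99 and 7.91 TPM in sham left kidneys. The coarctation groups did not overlap, although the right kidney of mouse 2 and the left kidney of mouse 1 lay close together. The log2 change was 3.05 (SE 0.91) in coarctation mice and -0.97 (SE 1.04) in sham mice.

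Atp6v0a4, the large membrane subunit of the intercalated pump, behaved less evenly. It had 24.3, 3.56 and 7.02 TPM in coarctation right kidneys and 8.06, 4.04 and 2.52 TPM in coarctation left kidneys, and mouse 2 was lower on the right. Sham right kidneys had 2.56 and 4.24 TPM and sham left kidneys had 10.5 and 6.71 TPM. The coarctation groups overlapped, and its log2 change of 1.18 (SE 0.72) was the smallest of the 9 shared genes.

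The other shared genes were Atp6v1b1, a subunit of the ring that splits ATP, the ammonia transporter genes Rhcg and Rhbg, the transcription factor gene Foxi1 and Hepacam2, an adhesion molecule of the immunoglobulin family. Hepacam2 had the largest change of the 9 shared genes in coarctation mice (log2 change 3.32, SE 1.01), with 26.7, 3.63 and 5.31 TPM in right kidneys and 2.58, 0.18 and 0.53 TPM in left kidneys. For Atp6v1b1 the change was 2.66 (SE 0.96) and for Rhbg 2.73 (SE 0.92), without overlap between the coarctation groups. Rhcg was lower in the right kidney of mouse 2, and its change was 1.87 (SE 0.99). Foxi1 was at 10.9, 0.19 and 1.41 TPM in coarctation right kidneys and at 1.01, 0.06 and 0.46 TPM in coarctation left kidneys, so that all 3 mice were higher on the right at very different levels (log2 change 2.96, SE 1.46). In mouse 2 this rested on 17 estimated counts on the right and 5 on the left.

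**Figure D3:**
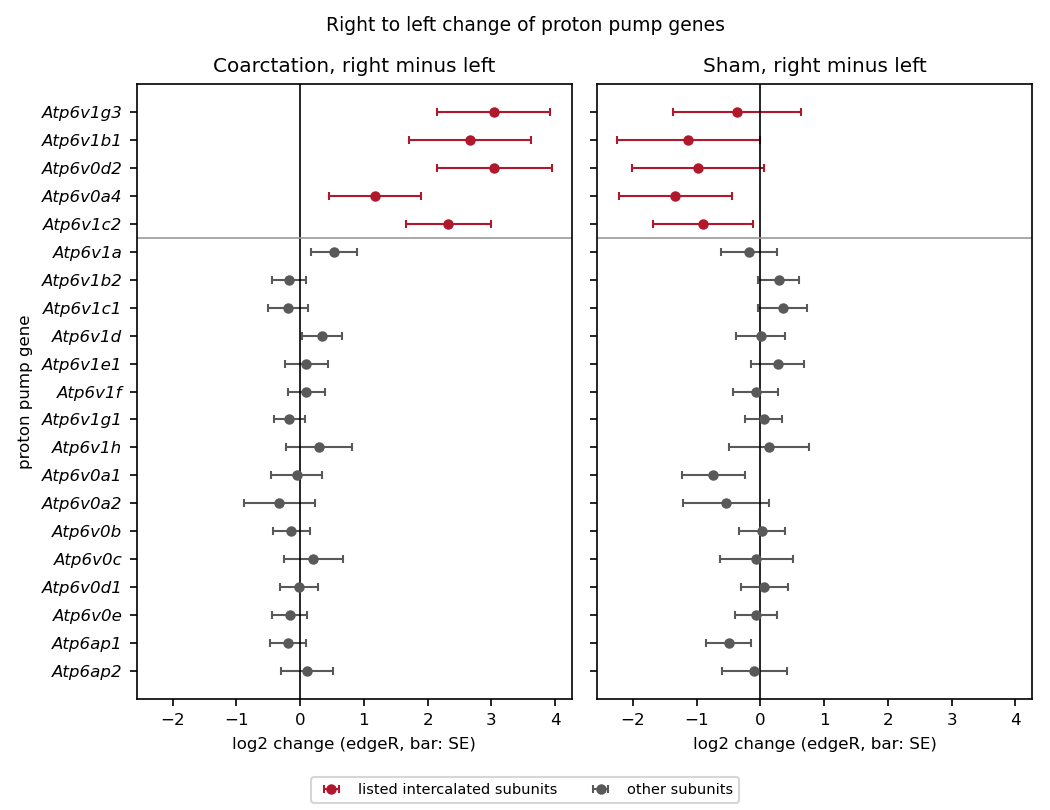
log2 change between right and left kidneys of 21 proton pump genes, in coarctation mice (left panel) and sham mice (right panel), from edgeR with bars of 1 SE. The 5 subunit genes of intercalated cells, in red, range from 1.18 to 3.05 in coarctation mice, while 16 other subunit genes, in grey, range from -0.32 to 0.53.

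The proton pump also sits in the lysosomes of all cells. The changes of its ubiquitous subunit genes, which are not confined to lysosomes or to 1 cell type, stayed near 0. For 16 such genes the median log2 change was -0.04 in coarctation mice (7 of 16 positive) and -0.03 in sham mice. Their summed level was 6168, 5504 and 4809 TPM in coarctation right kidneys and 5108, 5223 and 4824 TPM in coarctation left kidneys, with 4578 and 5140 TPM in sham right kidneys and 4396 and 5175 TPM in sham left kidneys. The groups overlapped, and within coarctation mice 1, 2 and 3 the median right minus left difference was 0.22, 0.09 and 0.02 on the log2(TPM + 1) scale. For the 9 shared intercalated genes it was 2.41, 0.98 and 2.05 in the same mice and -0.52 and -0.56 in sham mice 1 and 2.

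The 3 genes of type A cells were low, at 0.05 to 3.48 TPM in every kidney. Dmrt2, a transcription factor gene of these cells, had 3.48, 2.55 and 0.34 TPM in coarctation right kidneys and 0.20, 0.36 and 0.05 TPM in coarctation left kidneys, and in sham mice 0.14 and 2.50 TPM in right kidneys and 0.11 and 0.14 TPM in left kidneys. Its TPM was thus higher on the right in all 5 mice, with log2 changes of 3.28 (SE 1.23) after coarctation and 3.43 (SE 1.54) after sham surgery. In sham mouse 1, however, the right kidney held 6 estimated counts of Dmrt2 and the left kidney 5. Sham mouse 2 had 145 on the right and 8 on the left, so the sham change rested on that right kidney. The coarctation left kidneys held 10, 21 and 3 estimated counts. Slc4a1, the basolateral chloride and bicarbonate exchanger, had 1.42, 0.65 and 1.29 TPM in coarctation right kidneys and 0.91, 0.17 and 0.07 TPM in coarctation left kidneys, against 2.84 and 2.50 TPM in sham right kidneys and 0.79 and 0.93 TPM in sham left kidneys. It too was higher on the right in all 5 mice. Red blood cells also make Slc4a1, and globin RNA was present: Hbb-bs had 41.0, 939.0 and 3808 TPM in coarctation right kidneys and 463.3, 886.8 and 1148 TPM in coarctation left kidneys. The 6 red blood cell genes summed to 152.5 to 15980 TPM in coarctation right kidneys, 2086 to 4735 TPM in coarctation left kidneys, 921.4 to 4343 TPM in sham right kidneys and 1238 to 2296 TPM in sham left kidneys, almost all of it globin. The part of red blood cells in the Slc4a1 levels was not tested. In the remaining gene, the intracellular channel gene Aqp6, the coarctation groups did not overlap (0.90 to 2.64 TPM in right kidneys and 0.11 to 0.31 TPM in left kidneys, log2 change 2.74, SE 1.04).

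Type B genes were higher in the right kidneys of coarctation mice 1 and 3, with a smaller difference in mouse 2. Slc26a4, which encodes pendrin, the apical chloride and bicarbonate exchanger of type B cells, had 9.54, 1.38 and 7.05 TPM in coarctation right kidneys and 2.17, 0.07 and 0.27 TPM in coarctation left kidneys. Sham right kidneys had 7.96 and 0.63 TPM and sham left kidneys 7.29 and 7.33 TPM. All coarctation left kidneys lay below both sham left kidneys, while the coarctation right kidneys overlapped the sham range. The log2 change was 2.66 (SE 1.17) in coarctation mice and -0.90 (SE 1.35) in sham mice. Slc4a9, a basolateral exchanger gene, had 5.61, 0.02 and 2.09 TPM in coarctation right kidneys and 0.55, 0.28 and 0.01 TPM in coarctation left kidneys, against 2.64 and 1.25 TPM in sham right kidneys and 2.24 and 3.52 TPM in sham left kidneys. It was lower on the right in mouse 2, and its change was 3.16 (SE 1.40). Only 2 estimated counts of Slc4a9 were held by the right kidney of coarctation mouse 2, and 1 by the left kidney of mouse 3. Insrr, a receptor gene that responds to alkali, had no overlap between coarctation right and left kidneys (0.79 to 1.67 TPM and 0.06 to 0.62 TPM).

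The list also holds 3 carbonic anhydrase genes, the chloride channel subunit gene Bsnd and Spink8, and these did not move as 1 group. Car2, the cytosolic carbonic anhydrase of intercalated cells and also of red blood cells, had 405.5, 87.7 and 123.9 TPM in coarctation right kidneys and 103.4, 47.4 and 64.1 TPM in coarctation left kidneys, with 77.2 and 63.3 TPM in sham right kidneys and 82.5 and 149.2 TPM in sham left kidneys. It was higher on the right in each coarctation mouse (log2 change 1.43, SE 0.58). Of all 10 kidneys, Hbb-bs was lowest in the right kidney of mouse 1, at 41.0 TPM, and highest in that of mouse 3, at 3808 TPM. The part of red blood cells in the Car2 levels was not tested. Car12, a membrane form, was also higher on the right in 3 of 3 mice (0.82, SE 0.65), although mouse 1 was near a tie at 5.49 against 5.17 TPM. Car15 and Bsnd were not separated, with changes of -0.42 (SE 0.83) and 0.13 (SE 1.00). Both had their highest levels in the left kidney of sham mouse 1, at 66.4 and 2.48 TPM, as did the loop genes Umod, Slc12a1 and Kcnj1.

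Spink8 (chromosome 9, 109812280 to 109826633, plus strand, 5 exons) encodes a protease inhibitor of the Kazal family. It had 215.4, 60.1 and 112.1 TPM in coarctation right kidneys and 15.2, 7.85 and 4.58 TPM in coarctation left kidneys, with 38.1 and 24.3 TPM in sham right kidneys and 60.1 and 74.8 TPM in sham left kidneys. The coarctation right kidneys lay above both sham right kidneys, and the coarctation left kidneys lay below all 4 sham kidneys. Its log2 change was the largest of the 35 in coarctation mice, at 3.70 (SE 0.61), or 3.63 (SE 0.39) with the mouse as a block, and it was -1.18 (SE 0.68) in sham mice. In the blocked fit it was no longer called once both kidneys of coarctation mouse 1, or both kidneys of sham mouse 1, were left out.

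**Figure D4:**
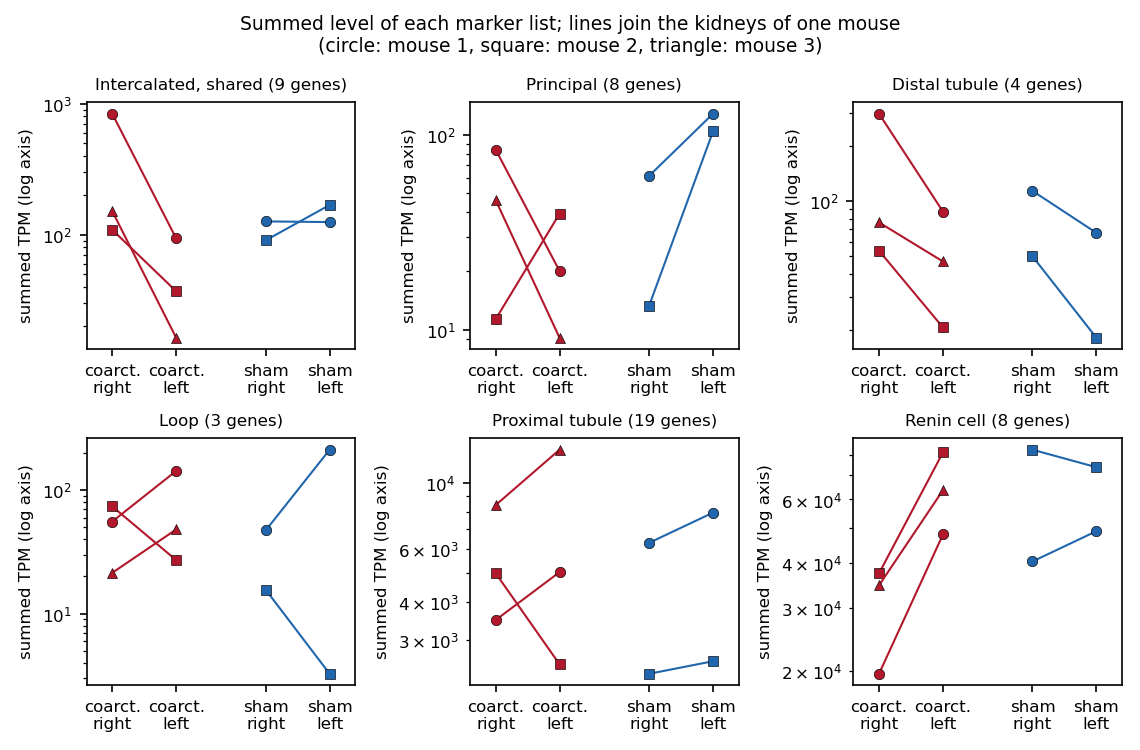
Summed TPM (log axis) of 6 marker lists in each kidney, with lines joining the right and the left kidney of a mouse, coarctation in red and sham in blue. The lines of the shared intercalated genes fall to the left kidney in 3 of 3 coarctation mice, those of the distal tubule in all 5 mice, and those of the principal and loop lists run in both directions.

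Principal cell genes were higher on the right in coarctation mice 1 and 3, as the intercalated genes were, and differed from them in mouse 2. Their summed level was 83.8, 11.4 and 46.3 TPM in coarctation right kidneys and 20.1, 39.4 and 9.15 TPM in coarctation left kidneys, with 61.5 and 13.3 TPM in sham right kidneys and 127.8 and 103.8 TPM in sham left kidneys. The sum was lower on the right in mouse 2, and none of the 8 genes was higher on the right in all 3 coarctation mice. The median log2 change of 0.95 became -0.0595 without both kidneys of coarctation mouse 1 and 1.99 without both kidneys of mouse 2.

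Aqp2 (chromosome 15, 99579055 to 99584547, plus strand, 4 exons), the water channel that vasopressin moves to the apical membrane, had 58.7, 7.08 and 28.5 TPM in coarctation right kidneys and 14.3, 29.1 and 4.16 TPM in coarctation left kidneys. Sham right kidneys had 39.8 and 9.49 TPM, and sham left kidneys had 99.7 and 82.3 TPM. The sham left kidneys had the highest Aqp2 of all groups, and the coarctation groups overlapped (log2 change 0.99, SE 0.77). Hsd11b2, the enzyme that inactivates glucocorticoids and so leaves the mineralocorticoid receptor to aldosterone, had 7.98, 1.69 and 5.82 TPM in coarctation right kidneys and 2.47, 6.90 and 0.97 TPM in coarctation left kidneys, against 8.65 and 0.56 TPM in sham right kidneys and 15.0 and 8.67 TPM in sham left kidneys. Within each of the 4 groups its kidneys had the same order as for Aqp2. The basolateral water channel gene Aqp3 had 4.07, 1.35 and 9.40 TPM in coarctation right kidneys and 1.27, 1.47 and 1.97 TPM in coarctation left kidneys, with 2.74 and 0.63 TPM in sham right kidneys and 7.25 and 5.11 TPM in sham left kidneys (log2 change 1.52, SE 0.75).

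The sodium channel subunit genes Scnn1a, Scnn1b and Scnn1g, the water channel gene Aqp4 and the vasopressin receptor gene Avpr2 were scarce. The 3 sodium channel genes had 0.01 to 5.87 TPM, and the highest value belonged to Scnn1g in the right kidney of sham mouse 1. Aqp4 had at most 1.67 TPM. Avpr2 had 7.35 TPM in the right kidney of coarctation mouse 1 and at most 3.89 TPM elsewhere, with 0 in the left kidney of mouse 2, and its change of 3.29 came with an SE of 1.97. In sham mice 5 of the 8 principal genes were lower in the right kidney of both mice (Aqp2, Aqp3, Aqp4, Avpr2 and Hsd11b2), and the median log2 change was -1.59, or -2.25 with the mouse as a block.

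The 4 distal tubule markers were, in sum, higher in right kidneys, after sham surgery as well as after coarctation. Their summed level was 297.9, 53.6 and 76.4 TPM in coarctation right kidneys and 87.5, 20.5 and 46.9 TPM in coarctation left kidneys, and 113.4 and 50 TPM in sham right kidneys against 67.0 and 18.0 TPM in sham left kidneys. All 5 mice were higher on the right, and the groups overlapped. Calb1 (chromosome 4, 15881264 to 15908064, plus strand, 11 exons), a calcium-binding protein of the distal tubule and connecting segment, had 193.6, 21.8 and 40.0 TPM in coarctation right kidneys and 45.7, 5.32 and 26.2 TPM in coarctation left kidneys. It had 74.5 and 13.6 TPM in sham right kidneys and 21.7 and 8.46 TPM in sham left kidneys, so that it was higher on the right in 5 of 5 mice. The log2 change was 1.62 (SE 0.92) in coarctation mice and 1.46 (SE 1.12) in sham mice.

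Pvalb, a calcium-binding protein of the early distal tubule, had 84.0, 24.1 and 28.1 TPM in coarctation right kidneys and 28.2, 10.4 and 16.3 TPM in coarctation left kidneys, against 18.4 and 27.3 TPM in sham right kidneys and 34.6 and 7.76 TPM in sham left kidneys. It was higher on the right in each coarctation mouse (log2 change 1.20, SE 0.68), and the sham mice differed in direction. The sodium chloride cotransporter gene Slc12a3 was higher on the right in all 5 mice, with changes of 0.54 (SE 0.69) after coarctation and 1.21 (SE 0.85) after sham surgery. Trpm6, a magnesium channel gene, stayed at or under 0.61 TPM. The median of the 4 genes in coarctation mice, 0.87, was -0.015 without the right kidney of mouse 1 and 1.67 without its left kidney.

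Loop genes were the exception in coarctation mice. Umod (chromosome 7, 119462711 to 119479282, minus strand, 11 exons), the most abundant protein of normal urine, had 48.3, 70.7 and 19.8 TPM in coarctation right kidneys and 130.3, 22.6 and 45.0 TPM in coarctation left kidneys. Sham right kidneys had 42.4 and 14.2 TPM, and sham left kidneys had 188.3 and 0.11 TPM. The left kidneys of the sham mice thus held both the highest and the lowest value of all 10, and mouse 2 of the coarctation group was higher on the right (log2 change -0.76, SE 1.28). Slc12a1, the loop cotransporter that furosemide blocks, had 3.51, 2.67 and 0.39 TPM in coarctation right kidneys and 8.00, 3.00 and 2.38 TPM in coarctation left kidneys, against 2.53 and 0.49 TPM in sham right kidneys and 15.9 and 0.11 TPM in sham left kidneys. The coarctation groups overlapped, although each mouse was lower on the right (log2 change -1.19, SE 1.17). Kcnj1, a potassium channel gene, had a change of -0.46 (SE 0.89). The median of the 3 genes was -0.765 in coarctation mice and became 0.43 without the left kidney of mouse 1. In sham mice it was -1.88, or -0.50 with the mouse as a block, and became 3.50 without the left kidney of mouse 1.

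In sham mice, taken over all 35 genes, 18 were lower in the right kidney of both mice, which held for 22.3% of all tested genes, and 5 were higher in both (Dmrt2, Slc4a1, Slc12a3, Calb1 and Trpm6), against 26.9% of all tested genes. The 18 were 12 intercalated and 5 principal genes with Kcnj1 of the loop. The median of the 20 intercalated genes was -0.64. No gene passed the threshold in edgeR's test of sham right against left kidneys (0%, with 366 genes at an unadjusted p under 0.05), and none passed with the mouse as a block, while DESeq2 called 28 genes, none of them a marker.

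The right to left changes of coarctation and sham mice were also compared with each other. No gene passed in edgeR's test of the difference (0%, with 575 genes at an unadjusted p under 0.05) with or without the block, and DESeq2 called 34 genes, including Spink8. For 9 markers, 3 of 3 coarctation mice were higher and 2 of 2 sham mice were lower in the right kidney, as were 4.11% of all tested genes. These were Atp6v1b1, Atp6v0d2, Atp6v1c2, Rhbg, Hepacam2, Aqp6, Car2, Car12 and Spink8, all of the intercalated list. The median difference of the changes was 3.15 over the 20 intercalated genes, 2.52 over the principal genes, -0.25 over the distal tubule genes and 1.26 over the loop genes, beside 0.02 over all tested genes. With the mouse as a block the loop median turned to -0.96.

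**Figure D5:**
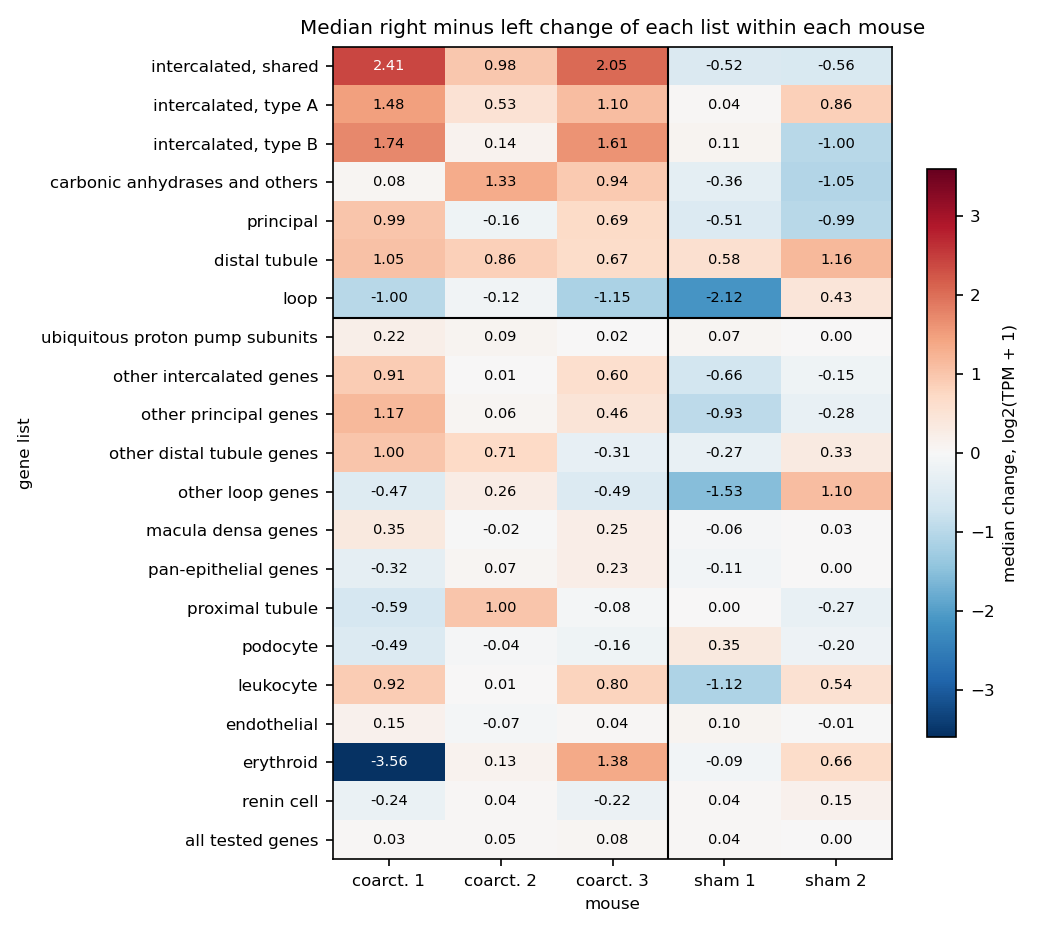
Median right minus left difference of each gene list (rows) within each mouse (columns), on the log2(TPM + 1) scale and printed in each cell; red is higher on the right, and the horizontal line parts the 7 marker lists from the other lists. The shared intercalated genes are at 2.41, 0.98 and 2.05 in coarctation mice and at -0.52 and -0.56 in sham mice, and the ubiquitous pump subunits are at 0.22, 0.09 and 0.02 in coarctation mice and at 0.07 and 0.00 in sham mice.

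Against sham mice, intercalated genes were lower in coarctation left kidneys and higher in coarctation right kidneys, and these comparisons share their libraries with the ones above. In left kidneys 19 of the 20 intercalated genes and all 8 principal genes had a negative log2 change (medians -1.38 and -1.64), and for 15 markers every coarctation left kidney lay below both sham left kidneys, as for 17.2% of all tested genes. Of these 15, 11 were intercalated and 4 principal (Aqp2, Aqp3, Scnn1b and Hsd11b2). In right kidneys 17 of the 20 intercalated genes had a positive change (median 1.60), and for 6 markers every coarctation right kidney lay above both sham right kidneys, as for 5.41% of all tested genes. These 6 were Atp6v1b1, Atp6v1c2, Rhbg, Hepacam2, Car2 and Spink8. The largest changes in left kidneys among the genes followed kidney by kidney were those of Slc4a9 (-3.10, SE 1.47), Slc26a4 (-2.76, SE 1.24) and Spink8 (-2.59, SE 0.62). No gene passed in edgeR's test in left kidneys (0%, with 894 genes at an unadjusted p under 0.05) or in right kidneys (0%, with 720), and DESeq2 called 39 and 57 genes, none of them a marker.

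Other genes of the same cells, not among the 35, were read in the same way. Of 11 other intercalated genes, 9 had a positive change in coarctation mice (median 1.31) and 8 a negative change in sham mice (median -0.72). The most abundant of them, the bicarbonate transporter gene Slc4a8, had 12.3, 18.4 and 25.7 TPM in coarctation right kidneys and 13.5, 35.8 and 21.96 TPM in coarctation left kidneys, and was higher on the right in mouse 3 only. Tfcp2l1, a transcription factor gene of these cells, had 21.1, 4.37 and 4.64 TPM in coarctation right kidneys and 6.54, 3.81 and 2.73 TPM in coarctation left kidneys. The summed level of the 11 genes was 88.7, 42.6 and 60.9 TPM in coarctation right kidneys and 39.9, 61.0 and 36.3 TPM in coarctation left kidneys, lower on the right in mouse 2. Of 8 other principal genes, 6 had a positive change in coarctation mice (median 0.88) and 6 a negative change in sham mice (median -1.05). Fxyd4, a regulator of the sodium pump in the collecting duct, had 115.9, 7.09 and 92.2 TPM in coarctation right kidneys and 42.0, 114.8 and 26.1 TPM in coarctation left kidneys, with mouse 2 again the one that was lower on the right. Of 9 other distal tubule genes, 7 had a positive change in coarctation mice (median 0.26), but 6 of the 9 had a negative change in sham mice (median -0.15, or 0.10 with the mouse as a block), unlike the 4 distal tubule markers. These 9 genes summed to 16840, 6549 and 7000 TPM in coarctation right kidneys. Their sums were 12040, 3106 and 8763 TPM in coarctation left kidneys. Sham right kidneys held 12590 and 3823 TPM of them, and sham left kidneys held 11630 and 3113 TPM. Fxyd2, at 2524 to 12110 TPM, carried most of each sum. Of 7 other loop genes, 5 had a negative change in coarctation mice (median -0.38) and 6 in sham mice (median -1.11, or -0.40 with the block). These 7 summed to 307 to 782.5 TPM in coarctation right kidneys and 197.8 to 1059 TPM in coarctation left kidneys. In sham mice they held 203.1 and 507.1 TPM at the ends of the range on the right, and 94.76 and 1580 TPM on the left. None of these genes passed the threshold in edgeR.

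Markers of further cells that a cortical digest could carry into the sort were also present in every library. The 19 proximal tubule genes summed to 3486, 4995 and 8415 TPM in coarctation right kidneys, 5035, 2483 and 12870 TPM in coarctation left kidneys, 6302 and 2309 TPM in sham right kidneys and 7944 and 2543 TPM in sham left kidneys, which is more than all 35 markers held in any kidney. Except in both kidneys of coarctation mouse 3, the other distal tubule genes, which are not among the 35, summed to more than these proximal genes. All 19 were above 0 in every library. Their median right minus left difference was -0.59, 1.00 and -0.08 in coarctation mice 1, 2 and 3. The 14 leukocyte genes summed to 957.4, 422.9 and 323 TPM in coarctation right kidneys and 99.5, 503.1 and 70.3 TPM in coarctation left kidneys, with 126.6 and 363.3 TPM in sham right kidneys and 454.4 and 135.9 TPM in sham left kidneys. Their median right minus left difference was 0.92, 0.01 and 0.80 in coarctation mice 1, 2 and 3. In sham mice 1 and 2 it was -1.12 and 0.54. Within coarctation mice 1, 2 and 3 a positive difference was seen for 9, 8 and 10 of the 14 genes. Of all 18825 tested genes, 10298, 10847 and 11450 had a positive difference in the same mice, so the count in mouse 2 was near that share. S100a8, S100a9 and C1qb were at 0 in 1 or more libraries. For 7 pan-epithelial genes the median difference was -0.32, 0.07 and 0.23 in the same coarctation mice. The 8 renin cell genes summed to 19650, 37380 and 34620 TPM in coarctation right kidneys and 47950, 81110 and 63670 TPM in coarctation left kidneys, and in sham mice to 40340 and 82510 TPM in right kidneys and 48980 and 73750 TPM in left kidneys. Ren1 and Crip1 carried much of these sums. In coarctation right kidneys Crip1, at 10450, 16450 and 15800 TPM, exceeded Ren1. The list did not move as 1 group. The median right minus left difference of its 8 genes was -0.24, 0.04 and -0.22 in coarctation mice 1, 2 and 3. Acta2, the smooth muscle actin gene, was higher on the right in all 3 mice. Foxi1, the defining transcription factor of intercalated cells, was above 0 in every kidney, at 0.06 to 10.9 TPM, and Umod, Aqp2 and Slc12a3 were also above 0 in all 10. The part of carried-over tubule cells, or of their free RNA, in these levels and in the differences between kidneys was not tested.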

How the data were processed

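Libraries were RNA-seq of sorted renin cells, 1 per kidney, and groups and mouse numbers came from the sample labels. The submitters' processing notes name FastQC and the mouse build GRCm38 (mm10); the sources used here do not give an aligner, a quantifier or a transcript annotation. Per the file headers, the deposited table gives TPM, estimated counts and average transcript lengths per gene symbol, and per a column of the deposited file the estimated counts were scaled from TPM by length and library size. Lengths were not used.

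In R 4.3.3, the estimated counts were rounded. Genes were filtered with filterByExpr of edgeR 4.0.16 (18825 of 32648 tested), scaled by TMM and fitted with edgeR's quasi-likelihood test, all 10 libraries entering as 4 groups (common dispersion 0.45, 6 residual degrees of freedom), with Benjamini-Hochberg adjustment over all tested genes and a threshold of 0.05. Log2 changes and their SE come from this fit. Differences within a mouse use deposited TPM as log2(TPM + 1). The model was checked on data drawn from these libraries with known fold changes. Intervals from counts would cover counting error only.

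The labels name the mice as biological replicates, and right and left kidneys with the same number come from 1 mouse. Deviations of both kidneys from their group means correlated at 0.127, 0.046 and 0.0308 in coarctation mice 1, 2 and 3 and at 0.39 in the sham mice, where groups of 2 force equal values. A fit with mouse as a block was an alternative, beside DESeq2 1.42.0, limma-voom (limma 3.58.1), DESeq2 size factors, no filter, a pseudocount of 0.1 and leaving out each library or mouse.

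The 35 genes, the other gene lists and the comparisons were chosen with earlier results of these data known. Values in every kidney are given for the genes with the highest mean TPM of each list and for markers past the threshold in any fit of the main or blocked model. Slc4a8, Tfcp2l1, Fxyd4, Fxyd2 and Hbb-bs are among the 4 highest of their lists. Hepacam2, Foxi1, Acta2, Crip1 and the zero counts of other genes were picked after their values were seen. Positions are from GENCODE vM21 and promoters from RefSeq (GRCm38.p6). Promoters without an entry in that table, and those of markers on chromosome 18, were not analysed here.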

Additional observations from a re-analysis of the deposited data

Results flagged for a closer look

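For 9 of the 35 genes every coarctation mouse was higher and every sham mouse lower in the right than in the left kidney, and the difference between the right to left changes of coarctation and sham mice is given here for each. It passed the threshold of edgeR's interaction test for none of them, with or without the mouse as a block. On the log2 scale the difference was 4.88 (SE 0.92) for Spink8, 4.02 (SE 1.38) for Atp6v0d2, 3.87 (SE 1.52) for Hepacam2 and 3.79 (SE 1.48) for Atp6v1b1. It was 3.35 (SE 1.41) for Rhbg, 3.23 (SE 1.04) for Atp6v1c2 and 3.11 (SE 1.57) for Aqp6. The smallest differences were those of Car2 (2.22, SE 0.92) and Car12 (1.19, SE 1.03). Some directions were near ties or rested on few counts. Car12 had 5.49 TPM on the right and 5.17 TPM on the left in coarctation mouse 1. In sham mouse 2 it had 2.97 and 3.22 TPM. Aqp6 had 11 estimated counts on the right and 16 on the left in sham mouse 1. The same combination of directions held for 4.11% of all tested genes, and these genes were chosen with results of the coarctation comparison known. The cause was not tested.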

How the results depend on the processing

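Counts of calls depended on the tool and the filter, and the cause was not tested. Against 0 genes in the 5 comparisons, with coarctation right against left first, then sham right against left, the difference of these changes, coarctation against sham in left kidneys and the same in right kidneys, DESeq2 called 76, 28, 34, 39 and 57 genes, and edgeR without the filter on low counts called 112, 19, 63, 67 and 70. DESeq2 called 1 marker in the first comparison and 1 in the third. Without the filter, 8, 0, 7, 3 and 4 markers were called in the same order. With the mouse as a block, 5 genes and 1 marker were called in the first comparison, and 1 gene when coarctation mouse 1 or sham mouse 1 was also left out (both chosen after seeing the data). The block changed no other call. Leaving out 1 library or mouse gave 0 to 4 genes in the first comparison (4 without coarctation mouse 3), 0 to 1 in the third and 0 to 3 in right kidneys. limma-voom and DESeq2 size factors in edgeR gave 0 genes.

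The intercalated median in coarctation mice (2.66) was 2.12 by limma-voom, 2.07 with the block and without mouse 1, and 1.48 (without the right kidney of mouse 1) to 3.34 (without its left kidney) when 1 library or mouse was left out. In sham mice (-0.64) it ran from -1.01 to -0.52. The principal median in coarctation mice (0.95) was 0.11 with the block and without mouse 1, and ran from -0.0595 to 1.99. In sham mice (-1.59) it was -2.25 with the block and by the block without coarctation mouse 1, -2.28 by limma-voom, -2.82 with the block and without sham mouse 1, and ran from -3.19 to -0.97. The distal tubule median ran from -0.015 to 1.67 in coarctation mice (0.87) and from 0.47 to 2.45 in sham mice (1.21), where it was 2.05 with the block and without sham mouse 1. The loop median ran from -1.71 to 0.43 in coarctation mice (-0.77) and from -2.76 to 3.50 in sham mice (-1.88), where it was -0.50 with the block and 2.09 with the block and without sham mouse 1. For 17 markers given kidney by kidney, 369 of 374 alternative changes kept their sign in coarctation mice and 355 of 374 in sham mice, and 14 and 8 of the 17 markers kept it throughout. What depth the scarcest markers would need was not tested.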
